A study of Coturnix japonica with 24 samples.

Results

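Abdominal white fat was compared between male Japanese quail (Coturnix japonica) given 16 hours of light a day and males given 8 hours. The comparison rests on 8 of the 24 libraries of the series, the 4 adipose libraries labelled 16v and the 4 labelled 8L, and every gene with enough counts was described. All birds had first been housed on long days (16 hours of light, 8 hours of dark). They were then put on 16 hours of light, which the design text calls a long photoperiod (16v), or on 8 hours of light, a short photoperiod (8L). The 4 adipose libraries at 12 hours of light (12v) entered the statistical fit and are given as levels in the closing part. The labels give neither the age or strain of the birds nor the number of days on each photoperiod, and they do not say which bird gave which library. A p-value below therefore measures the spread between these libraries.

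Quail is a long-day breeder in which light activates the thyroid and gonadal axes, and white adipose tissue stores and releases lipid as the birds move between seasons. The tissue is made of lipid-filled adipocytes, which carry FABP4, PLIN1 and CD36, and of a stroma of fibroblasts, vessels and immune cells that lays down collagen. In birds the liver makes most of the fatty acids, and adipocytes take them up from lipoproteins through lipoprotein lipase, store them as triglyceride around perilipins, and release them through the lipase PNPLA2.

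The study asked how the transcriptome of the tissue changes with season. Polyadenylated RNA was read as PCR-amplified cDNA on a Nanopore sequencer. Values are CPM, the usual per-library unit, here with each library total scaled by its TMM factor (trimmed mean of M values), and replicates 1 to 4 are always given in that order. Library totals were 543978, 72716, 667641 and 1148031 counts at 16v, and 923031, 1389063, 351635 and 805120 counts at 8L. In 16v replicate 2 a single count was worth 11.7 CPM, so that genes of low level appear there as 0 or in steps of that size. For such genes a 0 in that library carries little information. It can make a higher gene overlap, and it adds little to the separation of a lower gene. The same read appears often to be counted on several transcripts of a gene. For IGFBP2, with 5 transcripts in the table, the sum over transcripts was 4.93 times the count of the largest. CPM values are therefore not compared between genes as abundances. A sum over a list gives more weight to genes counted on many transcripts, so such sums are read between libraries only. Genes whose largest transcript held under 50 counts over the 12 adipose libraries are given with that count.

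The tissue label was checked against adipocyte genes, which were present in all 8 libraries. FABP4, the fatty acid binding protein of adipocytes, had 41832, 13384, 27946 and 28697 CPM in the 16v libraries, against 26000.2, 27452, 22704 and 33134 CPM in the 8L libraries. The summed level of the 21 adipocyte identity genes in the table was 58676, 24793, 48762 and 41215 CPM in the 16v libraries, against 43105, 45359, 36860.5 and 50134 CPM in the 8L libraries. The lowest sum belonged to the shallow 16v replicate 2, and the groups overlapped. FABP4 made up a large part of these sums, and sums without it were not compared. Fewer adipocytes and less adipocyte RNA per cell cannot be told apart in bulk tissue.

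Some libraries also held skeletal muscle RNA. Of 49 genes listed for muscle fibres (sarcomere proteins, calcium handling, fast-fibre enzymes) 41 were in the table, and they summed to 466, 12391, 364 and 100671 CPM in the 16v libraries, against 6579.9, 950.00, 662 and 321 CPM in the 8L libraries. The value of 16v replicate 4 was 117 times the median of the 12 libraries, that of 16v replicate 2 was 14.4 times and that of 8L replicate 1 was 7.67 times. The list took 8.68% of all counts in 16v replicate 4, or 3.99% where each gene was represented by its largest transcript, and 0.0338% in 8L replicate 4. TNNT3, the fast-fibre troponin T, had 0, 4278, 1.45 and 51657 CPM in the 16v libraries, against 3299.6, 358, 162 and 4.71 CPM in the 8L libraries. NEB, the giant thin-filament protein nebulin, had 0, 2314, 0 and 10433 CPM in the 16v libraries, against 1134, 35.5, 0 and 0 CPM in the 8L libraries. These genes were near 0 in 16v replicates 1 and 3 and in 8L replicate 4, and high in 16v replicates 2 and 4 and in 8L replicate 1. The sum over transcripts was 37.9 times the count of the largest transcript for TNNT3 and 49 times for NEB. TNNT3 made up a large part of the muscle sums of the libraries where it was high, and sums without it were not compared.

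MYLPF, the fast regulatory myosin light chain, had 8.14, 351, 2.901 and 3785 CPM in the 16v libraries, against 111, 10.6, 6.02 and 4.71 CPM in the 8L libraries. ACTA1, skeletal actin, had 4.88, 1029, 10.2 and 5852 CPM in the 16v libraries, against 336, 24.1, 15.04 and 8.25 CPM in the 8L libraries, and MYL1, a fast essential light chain, had 0, 1169, 13.1 and 7705 CPM in the 16v libraries, against 241, 4.26, 24.1 and 3.54 CPM in the 8L libraries. TPM2, a tropomyosin also made by smooth muscle, was present everywhere, with 417, 994, 255 and 5058 CPM in the 16v libraries, against 658, 460.5, 367 and 256 CPM in the 8L libraries, and the list without it summed to 48.8 CPM in 16v replicate 1 and 64.8 CPM in 8L replicate 4. Groups overlapped for all 6 of these genes, and the 16v group holds both the library with the most muscle RNA and 1 of the libraries with the least of it.

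**Figure D1:**
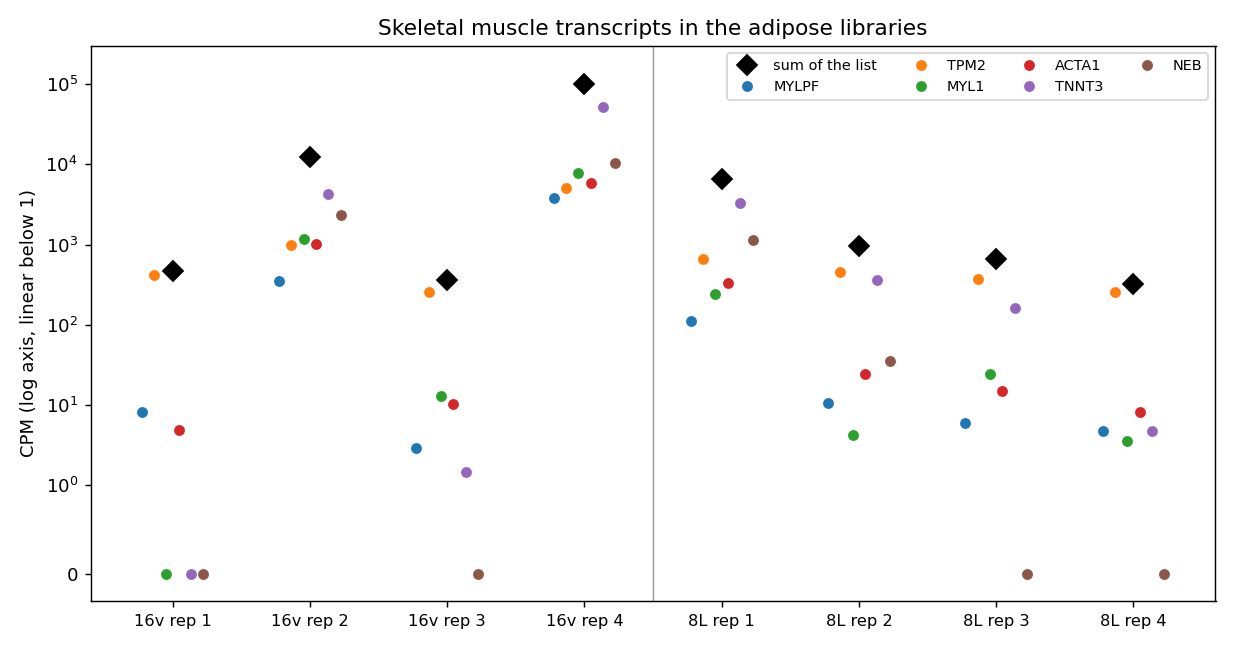
Levels of 6 skeletal muscle genes (coloured points) and of the sum of the muscle list (black diamonds) in each adipose library, in CPM on a log axis that is linear below 1, with the 4 16v libraries left and the 4 8L libraries right. The sums reach 100671 CPM in 16v replicate 4, 12391 CPM in 16v replicate 2 and 6580 CPM in 8L replicate 1, and lie between 321 and 950.0 CPM in the other libraries.

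In the edgeR quasi-likelihood fit of all 12 adipose libraries, 0 of 6494 tested genes (0%) passed an adjusted p of 0.05 (Benjamini-Hochberg) for 16v against 8L. At an unadjusted p under 0.05 there were 434 genes, 6.68% of those tested, with 204 higher (3.14%) and 230 lower (3.54%) in 16v tissue. With limma-voom 0 genes passed, and the unadjusted p was under 0.05 for 567. DESeq2 called 38 genes, 18 higher and 20 lower, among 536 at an unadjusted p under 0.05. An edgeR fit with each gene represented by its largest transcript (3819 genes tested) called 13, of which 11 were higher and 2 lower, and 12 of these 13 were also among the 38 of DESeq2. Over all tested genes the median log2 change was -0.06, with 2959 genes (45.6%) above 0 and 3535 (54.4%) below.

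All 4 16v libraries lay above all 4 8L libraries for 96 genes (1.48%) and below them for 232 genes (3.57%). The imbalance between these counts moved with the shallow library: without 16v replicate 2 the counts were 319 above and 315 below. Without the 4 libraries with the most muscle RNA (16v replicates 2 and 4, 8L replicate 1 and 12v replicate 2), 178 of 6637 tested genes were higher and 206 lower at an unadjusted p under 0.05, and 0 passed the adjusted threshold.

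**Figure D2:**
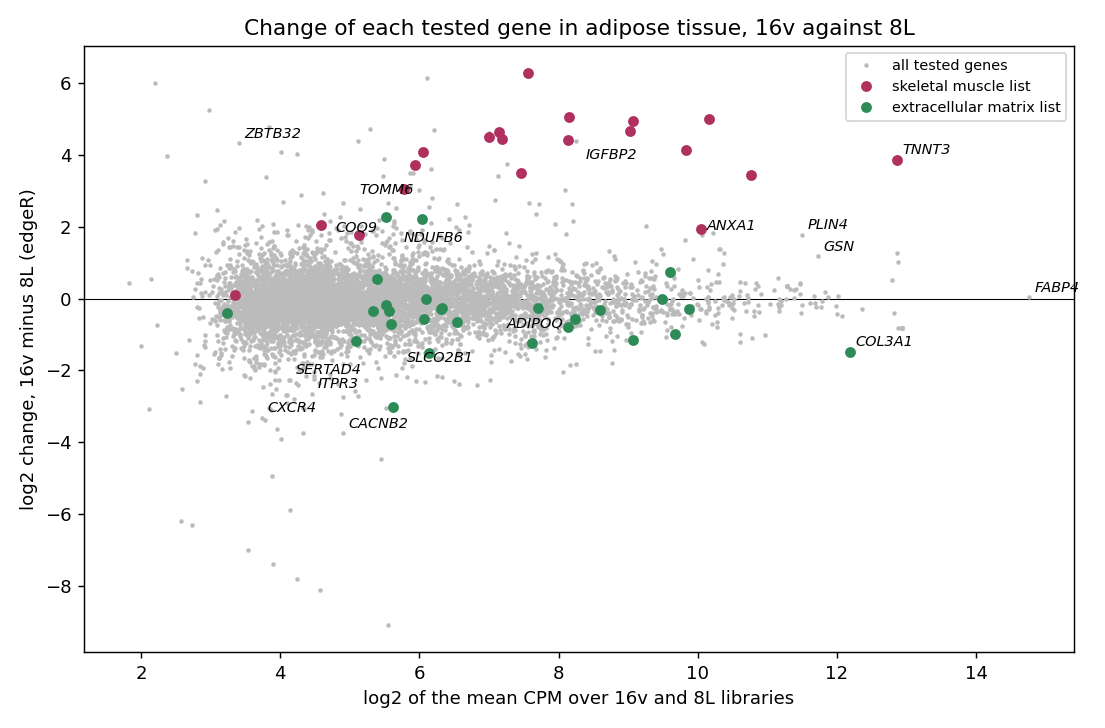
Log2 change (16v minus 8L, edgeR) of each of the 6494 tested genes (grey) against the log2 of its mean CPM over the 8 libraries, with the skeletal muscle list in purple and the extracellular matrix list in green. All 20 tested muscle genes lie above 0, and 23 of the 27 tested matrix genes lie below 0.

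Among the genes higher in 16v tissue, the one with the smallest p was IGFBP2, a secreted binding protein that holds insulin-like growth factors. It had 620.3, 1052, 225 and 435 CPM in the 16v libraries, against 28.5, 10.6, 45.1 and 29.5 CPM in the 8L libraries. The lowest 16v library was thus well above the highest 8L library. The log2 change was 4.39 ± 0.62, 20.9-fold, with an adjusted p of 0.0542 in the edgeR fit. The largest IGFBP2 transcript held 217 counts over the 4 16v libraries and 16 over the 4 8L libraries. Its adjusted p was 0.0017 with each gene represented by its largest transcript and 7.09e-10 with DESeq2, and over all 28 alternatives it ran from 7.09e-10 to 0.622 while the log2 change stayed between 3.97 and 4.65.

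ANXA1, a phospholipid-binding protein known in mammals for curbing inflammation, had 1206, 2244, 1353 and 1789 CPM in the 16v libraries, against 474, 418, 286 and 758 CPM in the 8L libraries. The groups did not overlap, with 1978 counts of its largest transcript at 16v and 916 at 8L. Its log2 change was 1.76 ± 0.33 (adjusted p = 0.268). ZBTB32, a zinc finger repressor of transcription, had 24.4, 0, 34.8 and 20.2 CPM in the 16v libraries, against 1.14, 0, 3.01 and 1.18 CPM in the 8L libraries. Its groups overlapped only through 16v replicate 2, where no read was counted, and the log2 change was 4.33 ± 0.81 (adjusted p = 0.268).

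The other 3 genes of this direction work in mitochondria. COQ9, needed for the synthesis of the electron carrier ubiquinone, had 40.7, 93.5, 66.7 and 118 CPM in the 16v libraries, against 12.5, 21.3, 18.05 and 24.8 CPM in the 8L libraries. TOMM6, a small subunit of the protein import channel of the outer membrane, had 58.6, 23.4, 122 and 139 CPM in the 16v libraries, against 15.96, 20.6, 9.02 and 15.3 CPM in the 8L libraries. NDUFB6, an accessory subunit of respiratory complex I, had 87.9, 35.1, 100.1 and 100 CPM in the 16v libraries, against 19.4, 25.5, 18.05 and 21.2 CPM in the 8L libraries. In all 3 the groups did not overlap, although for TOMM6 the shallow 16v replicate 2 came close to 8L replicate 2. Their log2 changes were 2.03 ± 0.41, 2.51 ± 0.52 and 1.98 ± 0.42, with adjusted p between 0.293 and 0.299. Each has a single transcript in the table, so its count is not multiplied.

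Among the genes lower in 16v tissue, ITPR3, a calcium release channel of the endoplasmic reticulum, had 4.88, 0, 8.704 and 6.06 CPM in the 16v libraries, against 34.2, 34.1, 45.1 and 43.6 CPM in the 8L libraries. CXCR4, the receptor of the chemokine CXCL12, had 0, 0, 1.45 and 5.05 CPM in the 16v libraries, against 22.8, 16.3, 42.1 and 18.9 CPM in the 8L libraries. SLCO2B1, an organic anion transporter, had 24.4, 11.7, 15.96 and 31.3 CPM in the 16v libraries, against 82.1, 58.9, 135 and 70.7 CPM in the 8L libraries. The groups did not overlap for any of these genes, though ITPR3 and CXCR4 were at 0 in the shallow 16v replicate 2. CXCR4 was at 0 in 2 of the 4 16v libraries, with 6 counts over the group against 73 in the 8L group. Log2 changes were -2.65 ± 0.51 for ITPR3 (adjusted p = 0.268), -3.31 ± 0.74 for CXCR4 (adjusted p = 0.299) and -1.92 ± 0.41 for SLCO2B1 (adjusted p = 0.299).

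SERTAD4 had 9.77, 0, 4.35 and 6.06 CPM in the 16v libraries, against 34.2, 29.8, 36.1 and 21.2 CPM in the 8L libraries, with a log2 change of -2.26 ± 0.51 (adjusted p = 0.299). CACNB2, a subunit of voltage-gated calcium channels, had 0, 0, 0 and 11.1 CPM in the 16v libraries, against 50.2, 40.4, 99.2 and 38.9 CPM in the 8L libraries, but its largest transcript held 27 counts over the 12 libraries, 1 at 16v and 16 at 8L.

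**Figure D3:**
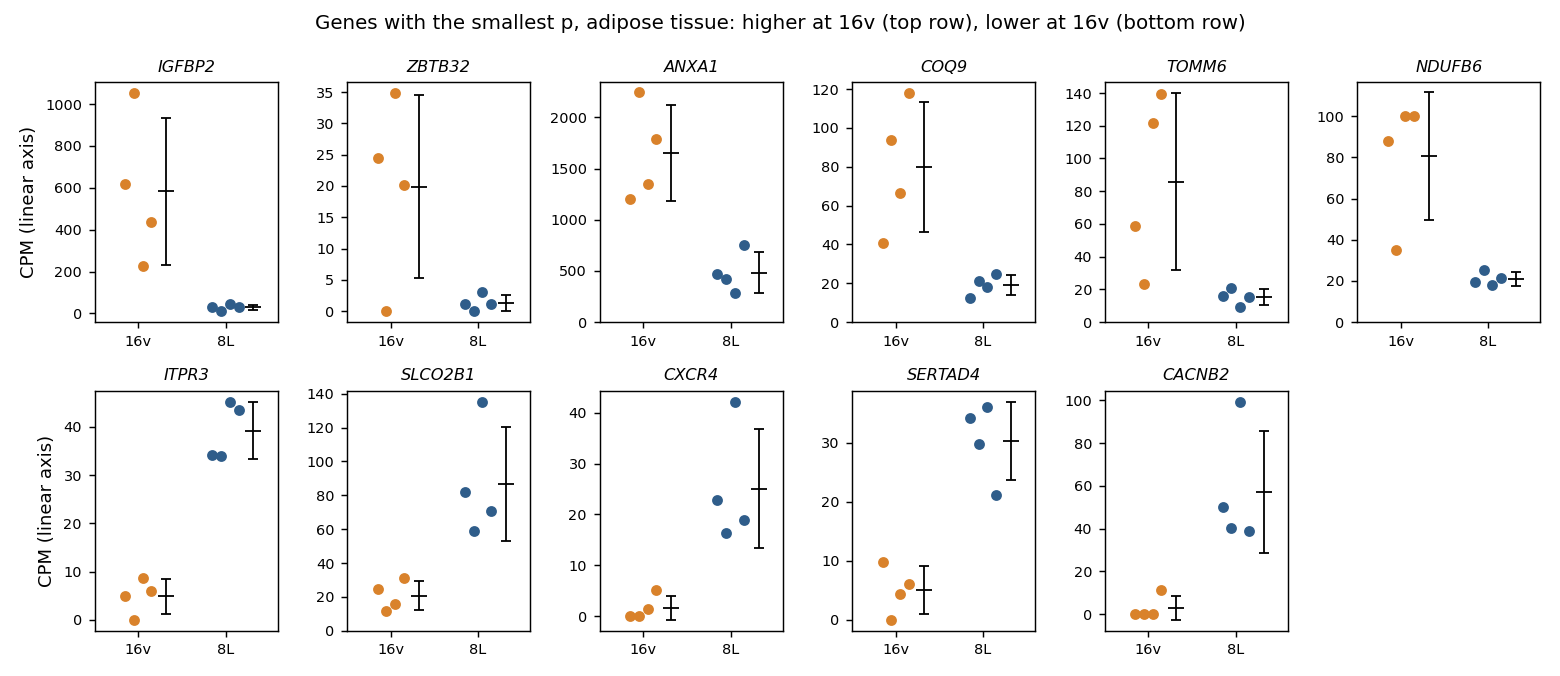
CPM of 11 of the genes with the smallest p, on linear axes, with 16v libraries (orange) left of 8L libraries (blue). Points are libraries and bars the mean ± SD (n = 4 each). The groups are apart in every panel but ZBTB32, where 16v replicate 2 is at 0.

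The 13 genes called with each gene represented by its largest transcript were IGFBP2, TOMM6, NDUFB6, COQ9, ANXA1, GJB1, NDUFA7, C7, ABHD6, TMCC2 and LOC121107141 on the higher side, and CXCR4 and SFRP2 on the lower side. Their CPM are relative to the total over the largest transcripts alone, which is smaller, and are not to be set beside the gene sums. GJB1 codes for a gap junction protein, and its largest transcript had 62.4, 0, 71.5 and 112 CPM at 16v and 10.2, 17.3, 11.5 and 18.5 CPM at 8L (log2 change 2.32 ± 0.44, adjusted p = 0.0159). NDUFA7 is another complex I subunit, with 36.9, 0, 102 and 103 CPM at 16v and 6.11, 16.1, 11.5 and 2.05 CPM at 8L (2.97 ± 0.55, adjusted p = 0.0159). Both overlapped between groups only through the 0 of 16v replicate 2. ABHD6, a hydrolase of monoacylglycerols, had 165, 134, 112 and 155 CPM at 16v and 75.3, 29.7, 11.5 and 41.0 CPM at 8L (1.77 ± 0.37, adjusted p = 0.03). SFRP2, a secreted modulator of Wnt signalling, had 173, 178, 158 and 119 CPM at 16v and 548, 656, 293 and 316 CPM at 8L (-1.56 ± 0.34, adjusted p = 0.0408). For ABHD6 and SFRP2 the groups were apart in every library. Without the 4 libraries with the most muscle RNA this fit called 2 genes, IGFBP2 and DNLZ (2 libraries at 16v and 3 at 8L).

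Lists of genes for pathways and cell types are given as counts and medians of their tested members. The same values over all 6494 tested genes were 45.6% above 0 and 54.4% below 0, with a median of -0.06. At an unadjusted p under 0.05 they were 3.14% higher and 3.54% lower, and without overlap 1.48% higher and 3.57% lower. Members named in these paragraphs beyond the genes of smallest p above and a panel of 12 metabolic genes were chosen after their values were seen, and 0 members of any list passed the adjusted threshold.

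**Figure D4:**
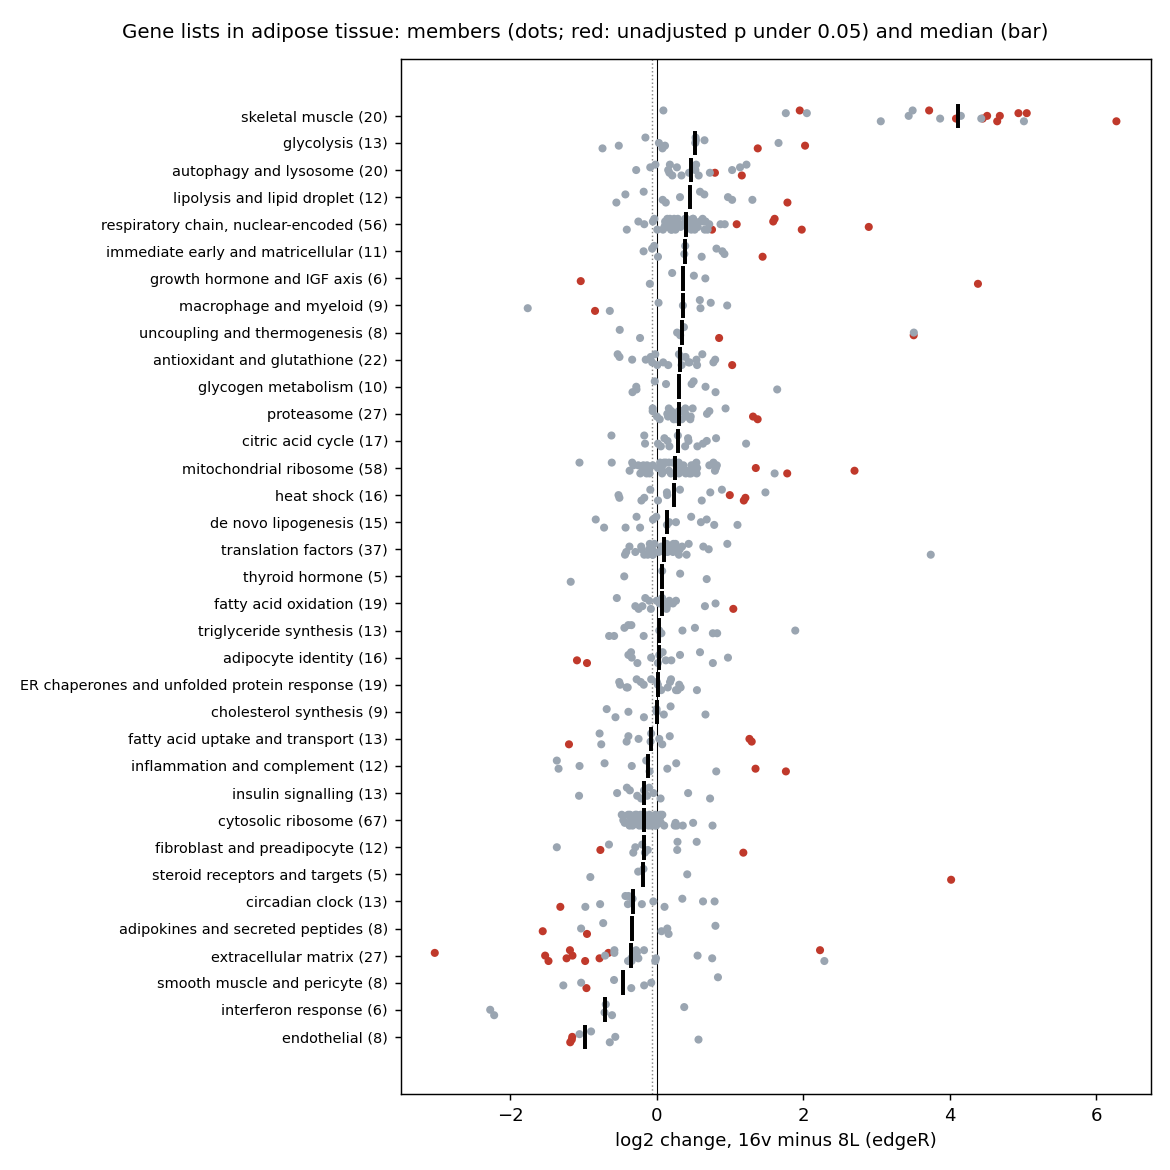
Log2 changes (16v minus 8L, edgeR) of the tested members of each list with at least 5 of them (number in brackets), as dots, red where the unadjusted p was under 0.05, with the list median as a bar and the median of all tested genes as a dotted line. The skeletal muscle median is 4.12, the respiratory chain median 0.40, the extracellular matrix median -0.35 and the endothelial median -0.98.

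Genes of the extracellular matrix, the collagens and linked glycoproteins around adipocytes and vessels, were mostly lower in 16v tissue. Of 30 listed, 27 were tested, with 4 above 0 and 23 below, where 54.4% of all tested genes were below 0, and with a median log2 change of -0.35. The unadjusted p was under 0.05 for 9 lower members and 1 higher member, where 3.54% of all tested genes were lower and 3.14% higher. Their summed level was 11616, 6464, 4039.9 and 9012 CPM in the 16v libraries, against 13414, 15279, 10349 and 15545 CPM in the 8L libraries. Only 16v replicate 1 reached into the range of the 8L libraries. COL3A1, given below, made up a large part of these sums, and sums without it were not compared. The median stayed below 0 under all 28 alternatives, from -0.68 without 16v replicate 1 to -0.30 without 16v replicate 3, and was -0.42 without the 4 libraries with the most muscle RNA.

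COL3A1, a fibrillar collagen of soft tissues, had 3756, 1636, 1153 and 3286 CPM in the 16v libraries, against 7200.1, 8812, 3633 and 7802 CPM in the 8L libraries. The 8L libraries were higher save 8L replicate 3, which lay just under 16v replicate 1, and the log2 change was -1.48 ± 0.41 (adjusted p = 0.463). COL4A1, a basement membrane collagen, had 461, 374, 216 and 282 CPM in the 16v libraries, against 581, 638, 1206 and 530.4 CPM in the 8L libraries, and its partner chain COL4A2 had 176, 93.5, 92.8 and 102 CPM in the 16v libraries, against 194, 239.8, 442 and 233 CPM in the 8L libraries. Neither overlapped between groups, with log2 changes of -1.15 ± 0.38 and -1.23 ± 0.395 (adjusted p = 0.525 for each). COL5A1, which is built into fibrils of other collagens, had 239, 316, 109 and 173 CPM in the 16v libraries, against 335, 324, 379 and 369 CPM in the 8L libraries (-0.78 ± 0.33). COL14A1, a fibril-associated collagen, had 29.3, 0, 0 and 7.07 CPM in the 16v libraries, against 71.8, 47.5, 102 and 134 CPM in the 8L libraries (-3.03 ± 1.01), and NID1, the basement membrane linker nidogen, had 52.1, 23.4, 8.704 and 53.5 CPM in the 16v libraries, against 53.6, 53.9, 265 and 55.4 CPM in the 8L libraries (-1.53 ± 0.66). All 3 were lower in every 16v library than in any 8L library, but COL5A1 (316 against 324 CPM) and NID1 only by a narrow margin. COL14A1 was at 0 in the shallow 16v replicate 2 and in 16v replicate 3, and 8L replicate 3 alone was high for NID1.

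POSTN, the matricellular protein periostin, lay in a narrow range at 16v, with 532, 491, 596 and 579.7 CPM in the 16v libraries, against 450.4, 1173, 1377 and 1344 CPM in the 8L libraries (-0.98 ± 0.36). Library 8L replicate 1 lay below all 16v libraries and the other 8L libraries lay above them. COL5A2 had 56.6 to 101 CPM at 16v and 87.98 to 124 CPM at 8L (-0.66 ± 0.302) and FBLN1, fibulin-1, 0 to 26.3 CPM at 16v and 21.1 to 87.3 CPM at 8L (-1.19 ± 0.55), and in both the groups overlapped. COL12A1, another fibril-associated collagen, was in the other direction, with 29.3, 152, 50.8 and 207 CPM in the 16v libraries, against 55.9, 19.9, 3.01 and 8.25 CPM in the 8L libraries (2.23 ± 0.75). Its highest values were in 16v replicates 2 and 4, the 16v libraries with muscle RNA, and without the 4 libraries with the most muscle RNA its log2 change was 1.79 ± 0.64.

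**Figure D5:**
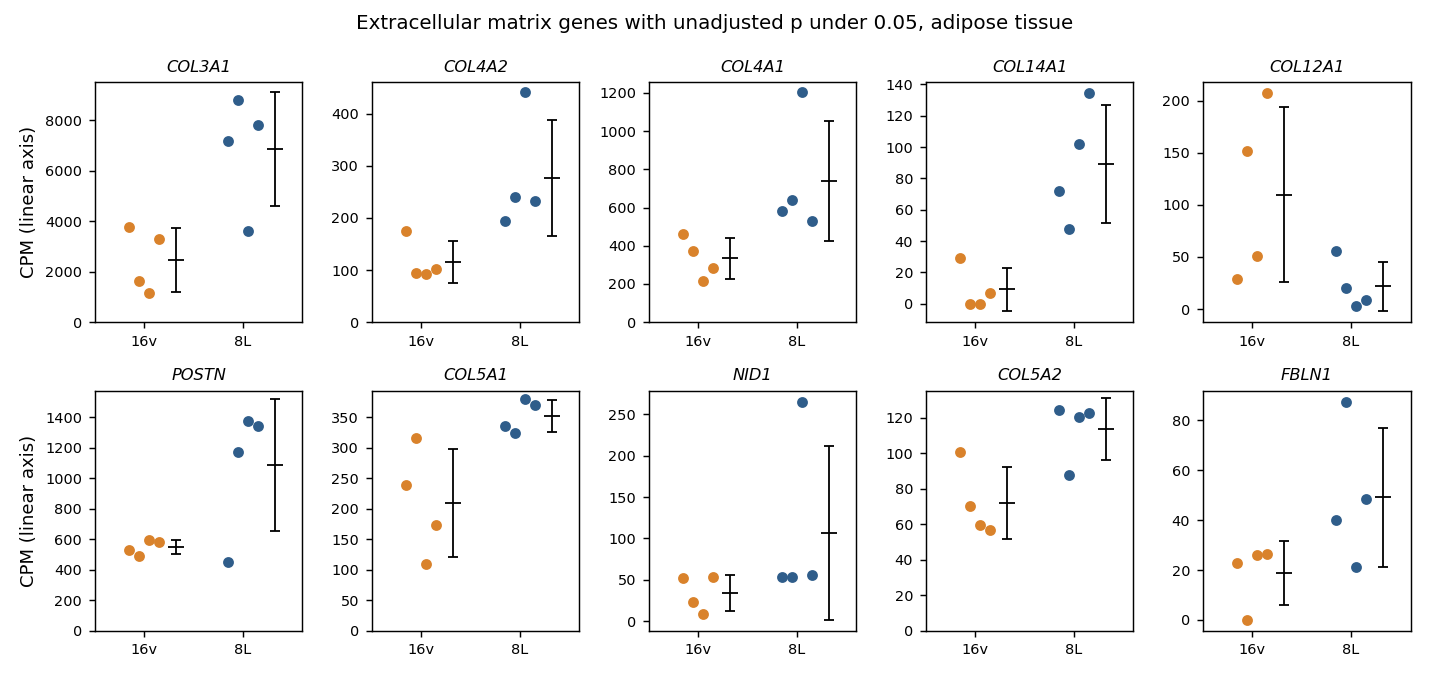
CPM of the 10 extracellular matrix genes with an unadjusted p under 0.05, on linear axes, with 16v libraries (orange) left of 8L libraries (blue). Points are libraries and bars the mean ± SD (n = 4 each); in 9 panels the 16v mean is the lower one, and in COL12A1 it is the higher one.

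Values are also given for proteins outside that list that act on collagen or on TGF-beta signalling. SERPINH1, the collagen chaperone of the endoplasmic reticulum, had 513, 281, 445 and 345 CPM in the 16v libraries, against 889, 612, 737 and 826 CPM in the 8L libraries, with no overlap and a log2 change of -0.94 ± 0.27 (adjusted p = 0.525). PCOLCE2, which enhances the cleavage of procollagens, was in the other direction, with 124, 70.1, 75.4 and 57.6 CPM in the 16v libraries, against 25.1, 11.4, 12.03 and 23.6 CPM in the 8L libraries (2.17 ± 0.57, adjusted p = 0.463). SMAD7, an inhibitor of TGF-beta signalling, had 65.1, 140.3, 29.01 and 40.4 CPM in the 16v libraries, against 22.8, 8.51, 12.03 and 18.9 CPM in the 8L libraries (1.97 ± 0.57, adjusted p = 0.525). The 16v libraries were all above the 8L libraries for PCOLCE2 and SMAD7.

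Vessel genes were also mostly lower in 16v tissue, and none passed the test. Of 8 tested endothelial genes 7 were below 0, where 54.4% of all tested genes were below 0, with a median of -0.98. An unadjusted p under 0.05 was met by 3, all lower, where 3.54% of all tested genes were lower. CDH5, the adhesion protein of endothelial junctions, had 106, 164, 58.02 and 68.7 CPM in the 16v libraries, against 174, 177, 322 and 184 CPM in the 8L libraries (-1.18 ± 0.46, adjusted p = 0.614). TIE1, an endothelial receptor, had 0 to 26.1 CPM at 16v and 26.2 to 66.2 CPM at 8L (-1.16 ± 0.500), with an upper 16v library just below the lowest 8L library. KDR, the main VEGF receptor, had 11.7 to 29.01 CPM at 16v and 23.6 to 102 CPM at 8L (-1.15 ± 0.52), and its groups overlapped. The summed level of the list was 1421, 1262, 1918 and 939 CPM in the 16v libraries, against 1573, 1648, 3907 and 1438 CPM in the 8L libraries. The groups overlapped, since 16v replicate 3 lay above every 8L library but 8L replicate 3. Library 8L replicate 3 stood far above the rest, and without it the median of the list was -0.59. In that fit 8 of 9 tested members were below 0, and 0 had an unadjusted p under 0.05. NRP1, a coreceptor of VEGF and semaphorins, is outside that list and was chosen after its values were seen. It was apart in all libraries, with 698, 491, 367 and 556 CPM in the 16v libraries, against 959, 968, 1041 and 928 CPM in the 8L libraries (-0.88 ± 0.26, adjusted p = 0.525).

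Smooth muscle and pericyte genes had 7 of 8 tested members below 0 (median -0.47, from -0.78 without 16v replicate 3 to -0.30 without 16v replicate 2 when single libraries were left out, and -0.24 without the 4 libraries with the most muscle RNA). PDGFRB, the pericyte receptor of PDGF, had 27.3 to 61.9 CPM at 16v and 69.5 to 108 CPM at 8L (-0.96 ± 0.37), without overlap. The fibroblast and preadipocyte list had 8 of 12 below 0 and a median of -0.18, from -0.38 without 16v replicate 4 to -0.08 without 16v replicate 3. Its summed level was 7777, 5704, 6045 and 7538 CPM in the 16v libraries, against 4056, 4265, 4385 and 5073 CPM in the 8L libraries, higher at 16v without overlap. Without GSN, the member with the highest CPM, the sums were 2813, 1555, 1308 and 2570.3 CPM in the 16v libraries, against 2513, 1937, 2129 and 2902 CPM in the 8L libraries, and overlapped. GSN, the actin-severing protein gelsolin, had 4964, 4149.7, 4736 and 4968 CPM in the 16v libraries, against 1543, 2329, 2256 and 2171 CPM in the 8L libraries. Its groups were far apart and each was narrow, and the log2 change was 1.18 ± 0.26 (adjusted p = 0.299 with edgeR and 2e-05 with DESeq2). LUM, the collagen-binding proteoglycan lumican, had 70.1 to 212 CPM at 16v and 156 to 339 CPM at 8L (-0.77 ± 0.34), with overlap. TMSB4X, which sequesters actin monomers, was lower without overlap, with 1467, 1274, 1323 and 1248 CPM in the 16v libraries, against 2296, 1966, 4099 and 2359.5 CPM in the 8L libraries (-1.01 ± 0.28, adjusted p = 0.476).

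Nuclear-encoded subunits of the respiratory chain, which carries electrons from NADH and succinate to oxygen and makes ATP, were mostly higher in 16v tissue without passing the test. Of 56 tested, 51 were above 0, against 45.6% of all tested genes, with a median log2 change of 0.40. An unadjusted p under 0.05 was met by 6, all higher, where 3.14% of all tested genes were higher. In 3 the 16v libraries were all above the 8L libraries, as in 1.48% of all tested genes. The summed level was 21584, 9176, 17518 and 21226 CPM in the 16v libraries, against 14708, 15426, 10148 and 16428 CPM in the 8L libraries. Here 16v replicate 2, with the lowest sum, lay below all 8L libraries and the other 16v libraries lay above them. The median was 0.48 without the 4 libraries with the most muscle RNA, with 51 of 56 above 0. It was 0.19 without 16v replicate 4, 0.20 without 8L replicate 3, 0.54 without 16v replicate 2, and above 0 in all 28 alternatives.

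Beside NDUFB6, the complex I subunit NDUFA11 had 30.9, 46.8, 49.3 and 87.9 CPM in the 16v libraries, against 15.96, 26.96, 15.04 and 12.96 CPM in the 8L libraries (1.59 ± 0.52). NDUFS5, of the same complex, had 87.9, 0, 89.9 and 98.98 CPM in the 16v libraries, against 23.9, 29.1, 6.02 and 35.4 CPM in the 8L libraries (1.61 ± 0.61). COX6A1, a subunit of cytochrome c oxidase, had 615, 257, 804 and 774 CPM in the 16v libraries, against 301, 275, 343 and 243 CPM in the 8L libraries (1.09 ± 0.36). NDUFA11 did not overlap between groups, while NDUFS5 and COX6A1 overlapped through 16v replicate 2 alone. NDUFAB1, the mitochondrial acyl carrier protein, had 175 to 309 CPM at 16v and 117 to 177 CPM at 8L (0.75 ± 0.29), with the groups overlapping. Adjusted p was 0.525 for COX6A1 and NDUFA11 and 0.612 for NDUFS5.

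Mitochondrial ribosomal proteins, which translate the subunits encoded in mitochondrial DNA, were above 0 in 40 of 58 tested members (median 0.25, from 0.12 to 0.34 over the alternatives, with 0.12 both without 8L replicate 3 and without 16v replicate 4). MRPL51 had 34.2, 0, 65.3 and 45.4 CPM in the 16v libraries, against 4.56, 14.9, 15.04 and 12.96 CPM in the 8L libraries (1.78 ± 0.62, adjusted p = 0.565). Again the 0 of 16v replicate 2 was the point of overlap. Cytosolic ribosomal proteins were below 0 in 53 of 67, with a median of -0.18. An unadjusted p under 0.05 was met by 0, where 3.14% of all tested genes were higher and 3.54% lower. Free of overlap were 0, where 1.48% of all tested genes were higher and 3.57% lower. The median of these proteins turned to 0.11 without the 4 libraries with the most muscle RNA and to 0.06 without 16v replicate 2, and it was -0.46 without 16v replicate 3. Genes of the citric acid cycle were above 0 in 14 of 17 (median 0.29), but the median was -0.09 without 16v replicate 4, 0.18 without 8L replicate 3 and 0.44 without 16v replicate 2.

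Genes of protein breakdown were mostly higher in 16v tissue too, and none passed the test. Of 27 tested proteasome subunits 25 were above 0 (median 0.30, from 0.18 without 16v replicate 4 to 0.37 over the alternatives). PSMA5, of the catalytic core, had 27.7, 35.1, 26.1 and 53.5 CPM in the 16v libraries, against 11.4, 11.4, 18.05 and 15.3 CPM in the 8L libraries (1.38 ± 0.38), and PSMD4, a ubiquitin receptor of the cap, had 45.6, 35.1, 39.2 and 72.7 CPM in the 16v libraries, against 14.8, 14.9, 18.05 and 31.8 CPM in the 8L libraries (1.31 ± 0.39). Both were higher in every 16v library (adjusted p = 0.463 and 0.525). Of 20 tested genes of autophagy and the lysosome 17 were above 0, with a median of 0.47, from 0.20 without 16v replicate 3 to 0.56 over the alternatives. Their summed level was 3971, 3051, 3254 and 2699.6 CPM in the 16v libraries, against 2609.8, 2119.9, 1335 and 2621 CPM in the 8L libraries. The groups were apart only by the narrow margin between 2699.6 and 2621 CPM. PSAP, given below, made up a large part of these sums, and sums without it were not compared.

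SQSTM1, the autophagy receptor also called p62, had 190.5, 374, 359.7 and 356 CPM in the 16v libraries, against 145, 224, 72.2 and 124 CPM in the 8L libraries (1.16 ± 0.37, adjusted p = 0.525). PSAP, the precursor of the lysosomal saposins, had 1947, 1636, 1192 and 955 CPM in the 16v libraries, against 991, 722, 493 and 1094 CPM in the 8L libraries (0.79 ± 0.32, adjusted p = 0.645). The overlap lay in 16v replicate 1 and 8L replicate 2 for SQSTM1, and in 16v replicate 4 for PSAP. Among 16 tested heat shock genes 11 were above 0 with a median of 0.23, which turned to -0.03 without 16v replicate 3 and was 0.13 without 8L replicate 3. They include the small chaperone HSPB8 at 35.1 to 62.6 CPM at 16v and 13.5 to 34.2 CPM at 8L (1.19 ± 0.41) and the transcription factor HSF2 at 33.3 to 70.1 CPM at 16v and 21.2 to 27.7 CPM at 8L (0.997 ± 0.38), neither overlapping. For HSPB8 the margin was narrow. Antioxidant and glutathione genes were above 0 in 15 of 22 with a median of 0.32, which was 0.07 without 8L replicate 3 and 0.14 to 0.20 when 1 of 8 other libraries was left out. Among them was the transferase GSTK1 with 244 to 549 CPM at 16v and 87.2 to 226 CPM at 8L (1.03 ± 0.37), and it did not overlap.

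The central genes of lipid metabolism overlapped between the photoperiods, with no common direction. De novo lipogenesis had 8 of 15 tested genes above 0 (median 0.14), triglyceride synthesis 7 of 13 (median 0.03), fatty acid oxidation 11 of 19 (median 0.07) and cholesterol synthesis 3 of 9 (median -0.003). The medians of all 4 lists took either sign when single libraries were left out, from -0.41 to 0.21 at the widest, for cholesterol synthesis without 16v replicate 1 and without 8L replicate 2. FASN, fatty acid synthase, had 223, 70.1, 81.2 and 87.9 CPM in the 16v libraries, against 209.8, 312, 84.2 and 169 CPM in the 8L libraries (-0.72 ± 0.45, adjusted p = 0.831). SCD, which desaturates stearoyl-CoA, had 280.02, 11.7, 24.7 and 195 CPM in the 16v libraries, against 98.1, 34.1, 30.1 and 86.04 CPM in the 8L libraries (1.102 ± 0.79, adjusted p = 0.858). Both varied widely within groups. ACACA, which makes malonyl-CoA for fatty acid synthesis, had 85.8 to 199 CPM at 16v and 73.8 to 114 CPM at 8L (0.47 ± 0.41), and THRSP, the thyroid-responsive spot 14 protein of lipogenic cells, had 351 to 3099.9 CPM at 16v and 309.8 to 1239.9 CPM at 8L (0.68 ± 0.56). For all 4 genes the groups overlapped, and the SE of 0.41 to 0.79 on the log2 scale is the limit on what could be seen.

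LPL, which frees fatty acids from lipoproteins, had 1784, 666, 1488 and 1318 CPM in the 16v libraries, against 1633, 1681, 709.8 and 1539 CPM in the 8L libraries (-0.08 ± 0.34). PLIN1, the main coat protein of adipocyte lipid droplets, had 3153, 1309, 4372 and 2974 CPM in the 16v libraries, against 3336, 3752, 739.9 and 3031 CPM in the 8L libraries (0.12 ± 0.47). CD36, a fatty acid transporter, had 4259.99 to 7552 CPM at 16v and 7469.8 to 9483 CPM at 8L (-0.39 ± 0.27), FABP4 had a log2 change of 0.03 ± 0.37, and CIDEC, which fuses droplets, one of 0.32 ± 0.42. Groups overlapped for all of these genes, with adjusted p of 0.847 or above.

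Lipolysis and droplet genes were above 0 in 9 of 12 (median 0.45, from 0.10 without 16v replicate 3 to 0.68 over the alternatives). PNPLA2, the first lipase of triglyceride breakdown, had 1011, 865, 4211 and 860.5 CPM in the 16v libraries, against 1255, 866, 577 and 851 CPM in the 8L libraries. Its log2 change of 0.97 ± 0.498 (adjusted p = 0.784) rested on 16v replicate 3, without which it was 0.03. PLIN4, a perilipin of small droplets, had 5890.2, 2209, 2803 and 6986 CPM in the 16v libraries, against 678, 1152, 469 and 2896 CPM in the 8L libraries (1.78 ± 0.599, adjusted p = 0.525). Only 8L replicate 4 entered the 16v range for PLIN4. In fatty acid transport VLDLR, a receptor of triglyceride-rich lipoproteins, was higher without overlap, with 42.3, 46.8, 31.9 and 36.4 CPM in the 16v libraries, against 6.84, 15.6, 24.1 and 17.7 CPM in the 8L libraries (1.296 ± 0.41), and FABP5, the fatty acid binding protein of epidermis and macrophages, had 619, 608, 538 and 822 CPM in the 16v libraries, against 1206, 762, 2586 and 1400.2 CPM in the 8L libraries (-1.200 ± 0.37). APOA1, the main protein of HDL, had 4332 to 20168 CPM at 16v and 1711 to 6857 CPM at 8L (1.27 ± 0.58), with overlap.

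Glycolysis had 10 of 13 tested genes above 0 (median 0.53). GAPDH had 378, 655, 359.7 and 2728 CPM in the 16v libraries, against 576, 361, 268 and 384 CPM in the 8L libraries (1.38 ± 0.603), and ALDOA, the aldolase of muscle, had 22.8, 0, 14.5 and 156 CPM in the 16v libraries, against 15.96, 9.93, 3.01 and 21.2 CPM in the 8L libraries (2.02 ± 0.904). Library 16v replicate 4, with the most muscle RNA, was by far the highest for both. The median was -0.13 without it and -0.12 without the 4 libraries with the most muscle RNA. SLC25A4, the ADP/ATP carrier of heart and muscle, followed the same libraries, with 0, 46.8, 2.901 and 381 CPM in the 16v libraries, against 27.4, 3.55, 3.01 and 3.54 CPM in the 8L libraries (3.51 ± 1.52). The muscle list itself had all 20 tested members above 0, with a median log2 change of 4.12. An unadjusted p under 0.05 was met by 10, all higher, where 3.14% of all tested genes were higher. Free of overlap between the groups were 0 of the 20, where 1.48% of all tested genes were higher without overlap. Without the 4 libraries 7 members were tested and the median was -0.46.

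Among secreted factors and hormone axes, ADIPOQ, the adipocyte hormone adiponectin, had 133, 93.5, 66.7 and 98.98 CPM in the 16v libraries, against 169.9, 233, 223 and 139 CPM in the 8L libraries. It was lower in every 16v library, the highest of which came near the lowest 8L library, with 98.2 ± 27.4 CPM at 16v and 191 ± 44.3 CPM at 8L (SD, n = 4 each) and a log2 change of -0.95 ± 0.35 (adjusted p = 0.582). PPARG, the nuclear receptor that drives adipocyte differentiation, had 345, 35.1, 162 and 314 CPM in the 16v libraries, against 532, 607, 279.7 and 466 CPM in the 8L libraries (-1.09 ± 0.49, adjusted p = 0.728). The shallow 16v replicate 2 was its lowest library, and 8L replicate 3 lay within the 16v range. IGFBP7, a binding protein abundant in vessels, had 199.97 to 467 CPM at 16v and 449 to 914 CPM at 8L (-1.04 ± 0.34). DIO2, the deiodinase that makes active thyroid hormone, had too few reads to be tested, with 28 counts on its largest transcript and 13.02, 0, 0 and 2.02 CPM in the 16v libraries, against 2.28, 26.96, 0 and 2.36 CPM in the 8L libraries.

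FKBP5, a co-chaperone induced by glucocorticoids in mammals, had 27.7, 11.7, 72.5 and 32.3 CPM in the 16v libraries, against 1.14, 5.68, 0 and 0 CPM in the 8L libraries (4.02 ± 1.04, adjusted p = 0.444), on 41 counts of its largest transcript. CRY1, a repressor of the circadian clock, had 19.5, 0, 27.6 and 40.4 CPM in the 16v libraries, against 43.3, 63.9, 84.2 and 66.00 CPM in the 8L libraries (-1.32 ± 0.51, adjusted p = 0.612). Neither overlapped between groups, with CRY1 at 0 in the shallow 16v replicate 2. For FKBP5 the 11.7 CPM of that library was 1 count, while the 5.68 CPM of 8L replicate 2 was 8 counts. The labels used here do not give the hour of sampling. Clock genes as a list were below 0 in 9 of 13 (median -0.33, and -0.08 without 16v replicate 2). Thyroid hormone genes were above 0 in 3 of 5 (median 0.07, below 0 when 1 of several libraries was left out, down to -0.17 without 16v replicate 3).

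Of the immune genes, C7, a terminal complement component, had 66.7, 35.1, 102 and 53.5 CPM in the 16v libraries, against 15.96, 17.03, 9.02 and 34.2 CPM in the 8L libraries (1.76 ± 0.44, adjusted p = 0.439), which did not overlap. CD74, the invariant chain of antigen-presenting cells, had 35.1 to 61.6 CPM at 16v and 48.1 to 137 CPM at 8L (-0.84 ± 0.39). Interferon response genes were below 0 in 5 of 6 (median -0.71), which rested on 8L replicate 4: it summed to 1259 CPM where the other 8L libraries summed to 96.2 to 128 CPM, and without it the median was 0.71. Macrophage genes were above 0 in 6 of 9 (median 0.36, but -0.04 without 8L replicate 1 and -0.02 without 16v replicate 3).

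Liver and blood transcripts were measured as well. The 14 liver genes in the table summed to 7639, 11304, 21324 and 5144 CPM in the 16v libraries. In the 8L libraries they summed to 3763, 8285, 2048 and 7913 CPM, and the groups overlapped. APOA1, given above with the genes of fatty acid transport, made up a large part of these sums, and sums without it were not compared. Of 4 tested liver genes 3 were above 0, and 2 were higher at an unadjusted p under 0.05, where 3.14% of all tested genes were higher. The median of the liver genes was 0.90, and 0.05 without 16v replicate 3. ALB, the serum albumin of liver, had 1.63, 503, 1.45 and 36.4 CPM in the 16v libraries, against 22.8, 9.22, 0 and 1.18 CPM in the 8L libraries (3.62 ± 1.54), on 32 counts of its largest transcript, so that 16v replicate 2 stands alone. The 9 erythrocyte genes in the table summed to 12272, 6663, 3870.2 and 5867 CPM in the 16v libraries, against 6212, 5845, 7191 and 9681 CPM in the 8L libraries, with the groups overlapping. The part of these transcripts in the results was not tested.

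Further genes without overlap and with an unadjusted p under 0.01 filled several roles. SLC40A1, the iron exporter ferroportin, had 163, 93.5, 131 and 125 CPM in the 16v libraries, against 223, 264, 373 and 335 CPM in the 8L libraries (-1.196 ± 0.299, adjusted p = 0.439). OGT, which attaches O-GlcNAc to proteins, had 19.5, 46.8, 34.8 and 18.2 CPM in the 16v libraries, against 74.1, 53.9, 72.2 and 70.7 CPM in the 8L libraries (-1.31 ± 0.38). HEBP1, a heme-binding protein, had 120.5, 81.8, 141 and 92.9 CPM in the 16v libraries, against 47.9, 34.8, 21.1 and 41.3 CPM in the 8L libraries (1.58 ± 0.44). The first 2 of these were lower and the last higher in 16v tissue.

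BOLA3, an assembly factor of mitochondrial iron-sulfur clusters, had 91.2, 140.3, 144 and 93.9 CPM in the 16v libraries, against 39.9, 62.4, 54.1 and 57.8 CPM in the 8L libraries (1.11 ± 0.33). MYO1C, a motor protein that takes part in GLUT4 traffic in mouse adipocytes, had 249, 245, 215 and 155 CPM in the 16v libraries, against 116, 111, 93.2 and 132 CPM in the 8L libraries (0.92 ± 0.27). RAB31, a small GTPase of endosomal traffic, had 55.4, 105, 73.98 and 41.4 CPM in the 16v libraries, against 31.9, 24.8, 9.02 and 23.6 CPM in the 8L libraries (1.501 ± 0.41). All 3 were higher in each 16v library than in any 8L library, with adjusted p from 0.463 to 0.525.

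AGRN, the basement membrane proteoglycan agrin, had 34.2, 0, 50.8 and 14.1 CPM in the 16v libraries, against 119.7, 109, 129 and 151 CPM in the 8L libraries (-2.16 ± 0.51, adjusted p = 0.323). GAB1, an adaptor of receptor tyrosine kinases, had 21.2, 0, 60.9 and 46.5 CPM in the 16v libraries, against 163, 143, 313 and 164 CPM in the 8L libraries (-2.397 ± 0.67). KANK3 had 71.6, 46.8, 92.8 and 76.8 CPM in the 16v libraries, against 141, 99.3, 205 and 174 CPM in the 8L libraries (-1.05 ± 0.32). These 3 were lower in every 16v library, and for AGRN and GAB1 the shallow 16v replicate 2 was at 0.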

How the data were processed

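The deposited table gives expected counts per transcript, not normalized, as the authors deposited it. Per the submitters' processing notes minimap2 and Salmon were used, without versions; the reference annotation is not given in the sources used here. Values were rounded (99.6% were whole within 1e-06) and summed over 51835 transcripts to 15542 genes. The quail RefSeq table held 5295 of the 6048 tested symbols but 0 of the transcript identifiers. Whether the counts were made on a quail annotation is therefore not known. Genes that met filterByExpr with a minimum count of 10 and a minimum total of 15 entered edgeR 4.0.16 (R 4.3.3): TMM factors, robust quasi-likelihood fit, 1 mean per photoperiod, 12 libraries, 9 residual degrees of freedom. SE is the log2 change over the square root of F. Alternatives used limma 3.58.1, DESeq2 1.42.0 and other settings; figures used matplotlib 3.10.9. Genes and lists were chosen with earlier results of these data known. Where under 6 genes passed in a direction, the 6 of smallest p were named as values, with a panel of 12 genes and the 6 highest muscle and adipocyte genes. No libraries of a group agreed within counting noise. Floors and CPM precision cover counting error only, since PCR reads carry no molecular identifiers. Same-numbered 16v and 8L libraries did not deviate together (r from -0.0952 to 0.00239), so numbers were not taken as pairs. The liver table was not used here. Some genes that this rule or the lists would name are not reported here.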

Additional observations from a re-analysis of the deposited data

Results flagged for a closer look

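Chance alone takes about 1 in 20 groups past Dixon's 95% limit only where values are normally distributed and groups are independent. Here the values were CPM on a linear scale, and the muscle sum contained muscle genes that were also counted as groups. The count below therefore cannot be set against that rate. Of 142 groups of 4 libraries examined, 27 held a library whose gap to the nearest other exceeded Dixon's 95% limit. In 16v replicate 4 these were TNNT3 (51660 CPM), MYL1 (7705 CPM), TPM2 (5058 CPM), MYLPF (3785 CPM) and the muscle sum (100700 CPM), and with them the sums for glycolysis (5780 CPM), glycogen metabolism (1115 CPM) and uncoupling and thermogenesis (1941 CPM). In 8L replicate 1 these were TNNT3 (3300 CPM), NEB (1134 CPM), ACTA1 (336.3 CPM), MYL1 (240.6 CPM), MYLPF (110.6 CPM) and the muscle sum (6580 CPM).

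Library 8L replicate 3 stood apart in low values of LPL (709.8 CPM), THRSP (309.8 CPM) and the sums for de novo lipogenesis (1657 CPM) and thyroid hormone genes (391 CPM), and in high sums for endothelial (3907 CPM) and clock genes (1429 CPM). PNPLA2 was high in 16v replicate 3 (4211 CPM). In 16v replicate 1 FASN (223 CPM), DIO2 (13.02 CPM) and the cholesterol synthesis sum (576.3 CPM) were high. CACNB2 was above 0 only in 16v replicate 4 (11.11 CPM) among the 16v libraries, DIO2 was high in 8L replicate 2 (26.96 CPM), and the interferon response sum was high in 8L replicate 4 (1259 CPM).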

How the results depend on the processing

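The count of genes passing the adjusted threshold was 0 in the edgeR fit and 0 with RLE factors, library size alone, limma-voom, the 16v and 8L libraries alone, the muscle level as covariate, muscle genes dropped before TMM, the libraries over 10 times the median muscle level left out, and (added after seeing the data) the 4 libraries over 5 times left out. It was 1 without a count filter, 1 with a stricter filter (mean of 20 counts), 1 with symbol genes alone, 13 with 1 transcript per gene and 38 with DESeq2; the added fits with 1 transcript per gene gave 2 without the 4 muscle libraries and 21 with the muscle covariate. Leaving out each library gave 0 to 4, with IGFBP2 as the gene without 12v replicate 2 or 16v replicate 3. Without 16v replicate 4 the genes were MGAT3, CACNB2, IGFBP2 and APOC3. Over the 12 adipose libraries the largest transcript held 41 counts for MGAT3 and 27 for CACNB2. With the replicate number as a block 0 genes passed, and the unadjusted p was under 0.05 for 333. Of the 30 named genes with a test, 21 kept their sign in every alternative that gave a value, among them the 12 of smallest p. Those 12 were chosen in the same libraries that the alternatives refit, so their kept sign is no independent evidence.

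Reversed log2 changes were those of muscle genes and of genes near 0, and the cause was not tested. With the libraries over 10 times the median out they were MYLPF -2.587, TPM2 -0.3633, MYL1 -3.317, ACTA1 -3.64, TNNT3 -10 and NEB -10.79, and LPL 0.2458. With the 4 libraries out they were TPM2 -0.09847, MYL1 -0.4587, ACTA1 -1.06, TNNT3 -7.55 and LPL 0.3238, and by 1 transcript per gene TPM2 -0.159, ACTA1 -1.034 and LPL 0.2524. With the muscle covariate they were ACTA1 -0.05927, TNNT3 -3.243 and NEB -2.386, and by 1 transcript per gene TNNT3 -1.106 and NEB -1.728. With limma-voom they were TNNT3 -0.7277 and FABP4 -0.08435, and with the replicate block FABP4 -0.07106. Single libraries left out gave -0.2003 to 0.3646 for PLIN1, -0.3051 to 0.1365 for LPL and -0.233 to 0.2656 for FABP4. Low depth in 16v replicate 2 limits all genes of low level.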

Other observations

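Levels at 12 hours of light, from the 4 adipose libraries labelled 12v, are given beside those of the compared groups by day length. Most of these genes were named for their difference between 16v and the same 8L libraries. Setting 12v against those 8L libraries is therefore no independent test. IGFBP2 had 10.6 to 45.1 CPM at 8L, 314 to 1170.5 CPM at 12v and 225 to 1052 CPM at 16v, so that all 12v libraries were above all 8L libraries. ANXA1 had 286 to 758 CPM at 8L, 1602 to 2005 CPM at 12v and 1206 to 2244 CPM at 16v. ZBTB32 had 0 to 3.01 CPM at 8L, 11.4 to 16.2 CPM at 12v and 0 to 34.8 CPM at 16v. GSN had 1543 to 2329 CPM at 8L, 3503 to 5454 CPM at 12v and 4149.7 to 4968 CPM at 16v, and for these 3 genes too the 12v libraries lay above the 8L libraries. Among genes of matrix and stroma, COL3A1 had 3633 to 8812 CPM at 8L, 2876 to 4219 CPM at 12v and 1153 to 3756 CPM at 16v. SFRP2 had 153 to 377 CPM at 8L, 78.9 to 158 CPM at 12v and 67.7 to 99.3 CPM at 16v. COL4A2 had 194 to 442 CPM at 8L, 134 to 349 CPM at 12v and 92.8 to 176 CPM at 16v. COQ9 had 12.5 to 24.8 CPM at 8L, 22.8 to 34.7 CPM at 12v and 40.7 to 118 CPM at 16v. TOMM6 had 9.02 to 20.6 CPM at 8L, 28.1 to 81.6 CPM at 12v and 23.4 to 139 CPM at 16v. NDUFB6 had 18.05 to 25.5 CPM at 8L, 22.8 to 71.1 CPM at 12v and 35.1 to 100.1 CPM at 16v. These mitochondrial genes differed in their 12v levels. For COQ9 the 12v libraries lay below all 16v libraries and reached into the 8L range. For TOMM6 they lay above all 8L libraries and within the 16v range, and for NDUFB6 they reached into both groups. CACNB2 had 38.9 to 99.2 CPM at 8L, 26.7 to 62.7 CPM at 12v and 0 to 11.1 CPM at 16v, with counts in all 4 libraries at 12v. LPL had 709.8 to 1681 CPM at 8L, 589.5 to 698 CPM at 12v and 666 to 1784 CPM at 16v, and all 4 12v libraries lay below all 8L libraries.

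The loci with a number in place of a symbol took 9.76%, 33.4%, 16.1% and 24.8% of counts in the 16v libraries and 28.5%, 22.0%, 31.7% and 20.2% in the 8L libraries. Their share was lowest in 16v replicate 1 and highest in 16v replicate 2.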
